A study of Mus musculus with 6 samples.

Results

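Macrophage and monocyte marker genes were examined in RNA-seq libraries of the inner enamel epithelium (IEE), the layer of the molar tooth germ that faces the dental papilla. The 9 genes were *Csf1*, *Csf1r*, *Cd68*, *Aif1*, *Mrc1*, *Cd163*, *Lyz2*, *Fcgr3* and *Tyrobp*. They were taken by their symbol from the 18152 genes of the expression table, and each of them was present. The IEE of the mandibular first molar was collected at E18.5, a late embryonic stage, by laser capture microdissection, in which an area of a tissue section is cut out under the microscope. Both groups carried 2 floxed copies of *Kdf1* on a C57BL/6J background. The control group was *Kdf1* fl/fl (3 libraries), which the sample labels call WT. The other group was *K14-Cre;Kdf1* fl/fl (3 libraries, cKO in the labels), in which Cre recombinase is driven by the keratin 14 promoter and removes *Kdf1* from epithelial cells. The deletion was directed at epithelium and not at macrophages. The labels number the samples of each group as biological replicates, and the sources used here do not say whether a library came from 1 embryo or from several.

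Macrophages and their circulating precursors, the monocytes, depend on CSF1, a growth factor made by stromal, epithelial and other cells, and on its receptor CSF1R on their own surface. They take up debris through scavenger receptors and antibody-coated particles through Fc receptors, whose signals pass through small adaptor proteins in the membrane. The transcription factor PU.1, encoded by *Spi1*, switches on many genes of the lineage. In developing teeth macrophages lie in the mesenchyme of the papilla and follicle, and their precursors also give rise to the osteoclasts that open the bony crypt. None of the marker genes belongs to such cells alone. *Lyz2*, *Fcgr3* and *Tyrobp* are also transcribed in neutrophils, *Csf1r*, *Cd68* and *Tyrobp* in osteoclasts, and *Mrc1* in some endothelial cells.

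The promoters of 7 of the 9 genes were found in the RefSeq table for GRCm38.p6, all but *Csf1r* and *Tyrobp*. The GAGGAA core of PU.1 binding sites was searched on both strands (GAGGAA or TTCCTC) in the 250 bases before each transcription start. It was present in 4 of the 7, where 23.3% of the 32851 promoter windows of the same length in the table hold it. Those 4 sequences are shown because PU.1 is the factor most tied to this lineage, with the matching letters in capitals. They lie at chr2:14229164-14229413 (plus strand), chr11:69666171-69666420 (minus strand), chr17:35176053-35176302 (minus strand) and chr1:171059404-171059653 (minus strand), and each is written 5′ to 3′ on the strand of its gene.
Mrc1: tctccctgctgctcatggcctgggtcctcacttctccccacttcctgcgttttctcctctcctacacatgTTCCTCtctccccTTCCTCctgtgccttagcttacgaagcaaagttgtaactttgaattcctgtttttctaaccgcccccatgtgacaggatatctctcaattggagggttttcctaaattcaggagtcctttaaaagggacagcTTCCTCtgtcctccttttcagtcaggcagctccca
Cd68: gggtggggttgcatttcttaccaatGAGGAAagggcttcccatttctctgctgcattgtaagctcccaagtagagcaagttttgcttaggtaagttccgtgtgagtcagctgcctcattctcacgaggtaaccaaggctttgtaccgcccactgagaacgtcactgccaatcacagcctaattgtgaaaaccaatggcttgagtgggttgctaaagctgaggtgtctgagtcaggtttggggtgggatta
Aif1: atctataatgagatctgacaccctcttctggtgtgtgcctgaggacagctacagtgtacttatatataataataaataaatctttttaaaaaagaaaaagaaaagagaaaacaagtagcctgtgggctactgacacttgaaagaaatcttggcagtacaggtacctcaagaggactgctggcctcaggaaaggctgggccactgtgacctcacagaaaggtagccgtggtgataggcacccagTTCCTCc
Fcgr3: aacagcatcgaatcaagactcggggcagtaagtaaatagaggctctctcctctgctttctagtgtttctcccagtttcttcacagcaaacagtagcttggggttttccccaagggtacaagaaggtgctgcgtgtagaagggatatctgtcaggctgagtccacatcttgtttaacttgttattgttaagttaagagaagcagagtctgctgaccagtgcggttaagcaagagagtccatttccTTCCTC
*Mrc1* had 3 matches, with first bases 180, 167 and 35 bases before the start. The match in *Cd68* began 225 bases before the start, that in *Aif1* 7 and that in *Fcgr3* 6 bases before it. The windows of *Csf1*, *Cd163* and *Lyz2* did not hold these letters. A match is a description of the letters only, since no binding was measured.

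Levels are given as CPM, counts scaled by the library size after TMM scaling. A count of 0 allows up to 3 counts, or 0.182 to 0.198 CPM over the libraries, for counting error only. Library totals lay between 14713918 and 16675133 counts. *Kdf1* was at 44.3 to 52.7 CPM in the *Kdf1* fl/fl libraries, with 1 read in all 3 *K14-Cre;Kdf1* fl/fl libraries together. The labelled tissue was checked by *Krt14*, *Cdh1* and *Epcam*, markers of dental epithelium. They were present in every library, but so was *Col1a1*, a gene of odontoblasts and other mesenchymal cells, at 2062 to 12956 CPM. In bulk RNA, more cells of a type and more RNA per cell cannot be told apart.

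Of the 9 marker genes, 0 passed the criterion of the study in the edgeR fit made here. The paper does not name the test behind its own calls. The criterion was a log2 fold change of 1 or more in either direction together with an adjusted p no higher than 0.05 (edgeR quasi-likelihood F-test, Benjamini-Hochberg). Of all 14131 genes tested, 0.432% passed it, and 0.142% passed it as higher in *K14-Cre;Kdf1* fl/fl. All 9 genes had passed the filter on low counts. Their log2 fold changes ran from 0.18 for *Lyz2* to 2.16 for *Cd163*, with a median of 1.43, beside −0.00 over all genes tested. A log2 fold change of 1 or more as higher was found for 8 of them, all but *Lyz2*, and for 9.23% of all genes. An unadjusted p of at most 0.05 was reached by 6 of them, all higher in *K14-Cre;Kdf1* fl/fl, and by 13% of all genes in that direction (24.5% in both directions). In DESeq2 with the same criterion 4 genes rose, *Csf1*, *Csf1r*, *Mrc1* and *Tyrobp*, where 4.96% of all genes passed as higher and 6.81% in both directions. None of these 4 calls was left in DESeq2 without replicate 1 of *K14-Cre;Kdf1* fl/fl (2.23% of all genes higher), without replicate 1 of *Kdf1* fl/fl (2.97%) or without replicate 3 of *Kdf1* fl/fl (2.28%). Without replicate 2 of *K14-Cre;Kdf1* fl/fl 2 of the 9 genes were called, *Csf1* and *Tyrobp* (3.95% of all genes higher). The other fits called more, 5 genes without replicate 3 of *K14-Cre;Kdf1* fl/fl (7.06% of all genes higher) and 6 without replicate 2 of *Kdf1* fl/fl (6.28%). In edgeR with the replicate number as a block 0 of 9 passed, beside 6.09% of all genes.

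**Figure D1:**
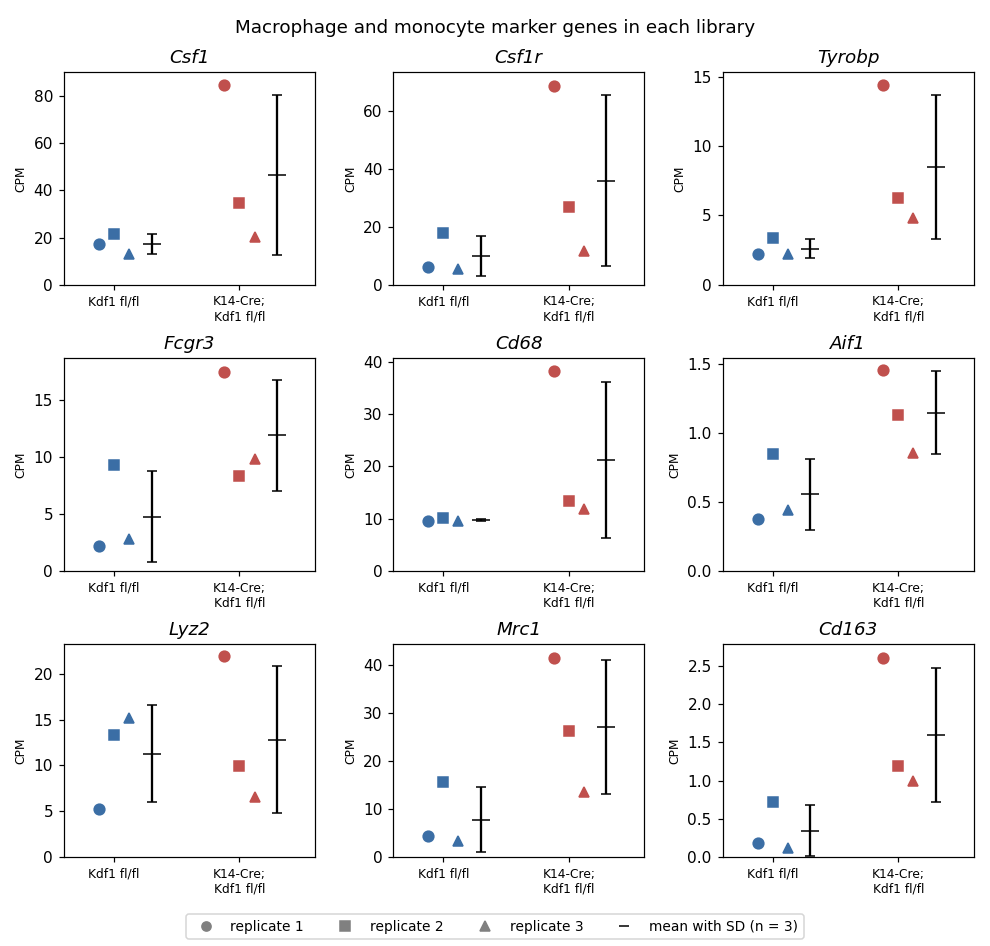
CPM (linear axes from 0) of the 9 marker genes in each library, *Kdf1* fl/fl in blue and *K14-Cre;Kdf1* fl/fl in red, with the mean and SD (n = 3) in black. Replicate 1 of *K14-Cre;Kdf1* fl/fl (red circle) is the highest library for all 9 genes, and the groups do not overlap for *Cd68*, *Aif1*, *Cd163* and *Tyrobp*.

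*Csf1*, the ligand, had 17.2, 21.5 and 13.01 CPM in replicates 1, 2 and 3 of *Kdf1* fl/fl and 84.8, 34.6 and 20.1 CPM in those of *K14-Cre;Kdf1* fl/fl. The groups overlapped, since replicate 3 of *K14-Cre;Kdf1* fl/fl lay under replicate 2 of *Kdf1* fl/fl. The mean was 17.2 ± 4.24 CPM in the controls and 46.5 ± 33.9 CPM in the cKO libraries (SD, n = 3 per group), and the fitted log2 difference was 1.43 (SE 0.51). The adjusted p was 0.149 in edgeR and 0.0285 in DESeq2 (Benjamini-Hochberg), and without replicate 1 of *K14-Cre;Kdf1* fl/fl the log2 fold change in edgeR was 0.68.

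*Csf1r*, the receptor for CSF1 on macrophages and osteoclast precursors, had 6.28, 17.9 and 5.56 CPM in *Kdf1* fl/fl and 68.8, 26.9 and 11.8 CPM in the cKO libraries. Again replicate 3 of *K14-Cre;Kdf1* fl/fl lay inside the range of the controls, whose replicate 2 was the highest. The log2 fold change was 1.85 (SE 0.71), with an adjusted p of 0.172 in edgeR and 0.0311 in DESeq2 (Benjamini-Hochberg). It was 0.97 without replicate 1 of *K14-Cre;Kdf1* fl/fl and 2.59 without replicate 2 of *Kdf1* fl/fl.

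*Tyrobp* encodes DAP12, an adaptor with an activation motif that carries signals of several myeloid receptors. It had 2.20, 3.39 and 2.21 CPM in *Kdf1* fl/fl and 14.4, 6.29 and 4.81 CPM in the cKO libraries, without overlap. The means were 2.6 ± 0.686 and 8.51 ± 5.18 CPM (SD, n = 3 per group), and the log2 fold change was 1.71 (SE 0.46). Its adjusted p was the lowest of the 9 genes in both tools, 0.0947 in edgeR and 0.00824 in DESeq2 (Benjamini-Hochberg). Without replicate 1 of *K14-Cre;Kdf1* fl/fl, the log2 fold change was 1.10 with an adjusted p of 0.166 in edgeR.

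*Fcgr3*, a low-affinity receptor for the constant part of IgG, had 2.20, 9.33 and 2.78 CPM in *Kdf1* fl/fl and 17.5, 8.37 and 9.82 CPM in the cKO libraries. Here replicate 2 of *K14-Cre;Kdf1* fl/fl lay under replicate 2 of *Kdf1* fl/fl, and the other controls lay far below both. The log2 fold change of 1.31 (SE 0.58) had an adjusted p of 0.218 in edgeR and 0.115 in DESeq2 (Benjamini-Hochberg). Without replicate 2 of *Kdf1* fl/fl it was 2.25 in edgeR with an adjusted p of 0.0890, and DESeq2 then called the gene. The counts of *Fcgr3* are uncertain, because reads can be shared with the similar receptor gene *Fcgr2b*.

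*Cd68*, a glycoprotein of lysosomes, had 9.61, 10.1 and 9.60 CPM in *Kdf1* fl/fl, the narrowest control range of the 9 genes relative to its mean. The *K14-Cre;Kdf1* fl/fl libraries had 38.3, 13.5 and 11.9 CPM, all above the controls. The log2 fold change was 1.12 (SE 0.45, edgeR adjusted p = 0.181 with Benjamini-Hochberg adjustment). It was 0.39 without replicate 1 of *K14-Cre;Kdf1* fl/fl, the lowest of the 9 genes but *Lyz2* in that fit.

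*Aif1* encodes IBA1, an actin-binding protein used to stain macrophages and microglia. It was near the floor, with 6, 14 and 7 counts (0.377, 0.848 and 0.442 CPM) in *Kdf1* fl/fl and 23, 18 and 13 counts (1.46, 1.13 and 0.857 CPM) in the cKO libraries. The groups did not overlap, but the highest control and the lowest *K14-Cre;Kdf1* fl/fl library were almost level. The log2 fold change was 1.03 (SE 0.46), and the adjusted p was 0.215 in edgeR and 0.332 in DESeq2 (Benjamini-Hochberg).

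*Lyz2*, the lysozyme of myeloid cells, did not follow the other genes. It had 5.27, 13.3 and 15.2 CPM in *Kdf1* fl/fl and 21.9, 9.94 and 6.59 CPM in the cKO libraries. The lower *K14-Cre;Kdf1* fl/fl libraries lay inside the control range, and among the controls replicate 3 was the highest, where each of the other 8 genes was highest in replicate 2. The log2 fold change was 0.18 (SE 0.53, edgeR adjusted p = 0.858 with Benjamini-Hochberg adjustment), and it changed sign to −0.44 without replicate 1 of *K14-Cre;Kdf1* fl/fl and to −0.15 without replicate 1 of *Kdf1* fl/fl. *Lyz2* can share reads with its near copy *Lyz1*, a lysozyme of Paneth cells, which had 1, 13 and 8 counts in *Kdf1* fl/fl and 18, 7 and 5 counts in *K14-Cre;Kdf1* fl/fl.

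*Mrc1*, the mannose receptor CD206, and *Cd163*, the scavenger receptor for haemoglobin bound to haptoglobin, mark tissue-resident macrophages. *Mrc1* had 4.40, 15.7 and 3.41 CPM in *Kdf1* fl/fl and 41.4, 26.3 and 13.6 CPM in the cKO libraries, so that replicate 2 of *Kdf1* fl/fl lay above the lowest *K14-Cre;Kdf1* fl/fl library. Its log2 fold change was 1.79 (SE 0.65), with an adjusted p of 0.155 in edgeR and 0.0273 in DESeq2 (Benjamini-Hochberg). Without replicate 2 of *Kdf1* fl/fl it was 2.79, with an adjusted p of 0.0884 in edgeR.

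*Cd163* had the lowest counts of the 9 genes in the controls, with 3, 12 and 2 counts (0.188, 0.727 and 0.126 CPM) in *Kdf1* fl/fl and 41, 19 and 15 counts (2.59, 1.20 and 0.989 CPM) in the cKO libraries. The groups did not overlap, and replicates 1 and 3 of *Kdf1* fl/fl were at or under the floor. The fitted log2 fold change of 2.16 (SE 0.71) was the largest of the 9 genes, with an adjusted p of 0.132 in edgeR and 0.0730 in DESeq2 (Benjamini-Hochberg). Without replicate 2 of *Kdf1* fl/fl it was 3.27, a fitted value that rests on controls at or under the floor. On log2(TPM + 1), where low genes are compressed, it was 0.55.

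**Figure D2:**
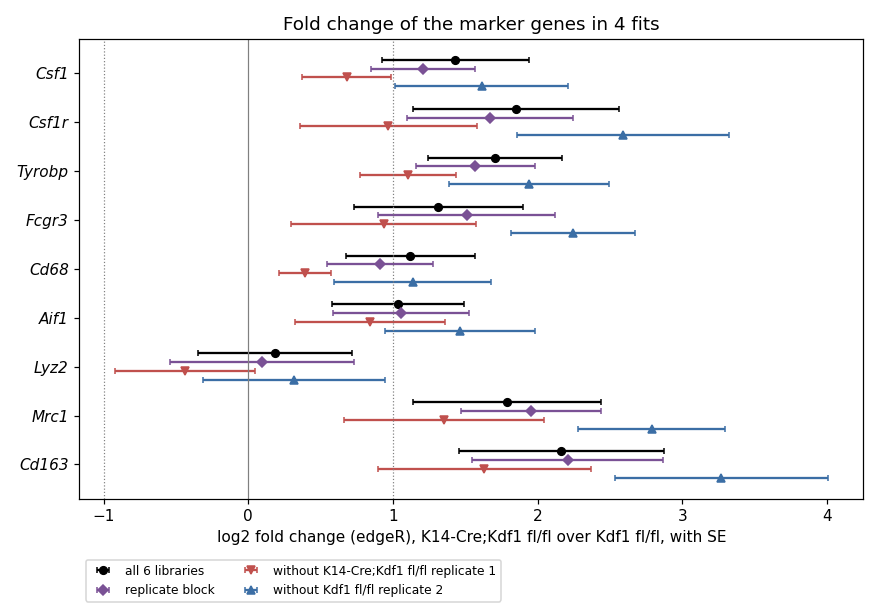
Log2 fold change with SE (edgeR, *K14-Cre;Kdf1* fl/fl over *Kdf1* fl/fl) of the 9 marker genes in the fit of all 6 libraries, with the replicate block, without replicate 1 of *K14-Cre;Kdf1* fl/fl and without replicate 2 of *Kdf1* fl/fl. The dotted lines mark the criterion of 1 in either direction. *Lyz2* lies between −0.44 and 0.32 in the fits shown, and the other 8 genes lie above 0 and, of the 4 fits shown, are lowest without replicate 1 of *K14-Cre;Kdf1* fl/fl.

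Levels of different genes were compared in the deposited TPM, which take transcript length into account. In *Kdf1* fl/fl the order of the mean TPM was *Lyz2* (24.4 ± 11.2), *Cd68* (17.1 ± 1.55), *Tyrobp* (14.7 ± 4.91), *Csf1* (8.28 ± 2.71), *Fcgr3* (7.61 ± 6.91), *Csf1r* (4.83 ± 3.65), *Mrc1* (2.74 ± 2.53), *Aif1* (1.5 ± 0.728) and *Cd163* (0.150 ± 0.148; SD, n = 3). Neighbours in this order differed by less than the larger of their SDs, except *Tyrobp* from *Csf1* and *Aif1* from *Cd163*. In *K14-Cre;Kdf1* fl/fl *Tyrobp* led with 50.8 ± 34.1 TPM, *Cd68* and *Lyz2* (29.8 ± 20.6 TPM) came next, and the other 6 genes kept their order.

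The difference between the groups was unequally spread over the *K14-Cre;Kdf1* fl/fl libraries. Relative to the control mean CPM, replicate 1 was between 1.94-fold (*Lyz2*) and 7.47-fold (*Cd163*) with a median over the 9 genes of 4.92-fold. The median was 2.04-fold in replicate 2 and 1.54-fold in replicate 3, and *Lyz2* was the lowest and *Cd163* the highest gene in each. Replicate 1 lay above every control for 9 of 9 genes, replicate 2 for 7 and replicate 3 for 5. The groups did not overlap for 4 genes, *Cd68*, *Aif1*, *Cd163* and *Tyrobp*, all higher in *K14-Cre;Kdf1* fl/fl, as was the case for 14.5% of all genes tested. Without replicate 2 of *Kdf1* fl/fl this held for 8 of the 9 genes and 20.6% of all genes, and without replicate 1 of *K14-Cre;Kdf1* fl/fl for 4 of the 9 and 19.1% of all genes.

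Among the controls, replicate 2 stood out in some of the genes only. It held 4.62 times the mean of the other controls for *Cd163*, 4.02 times for *Mrc1*, 3.75 times for *Fcgr3* and 3.03 times for *Csf1r*. The ratio was 2.07 for *Aif1*, 1.54 for *Tyrobp*, 1.42 for *Csf1*, 1.30 for *Lyz2* and 1.05 for *Cd68*. In the same library the summed CPM of the neutrophil list (7.39, between 8.73 and 6.19 in replicates 1 and 3) and of the osteoclast list (120, between 127 and 76.8) lay inside the range of the other controls. The same library was the highest control in the pan-leukocyte (106 CPM, beside 70.7 and 86.4), endothelium (383, beside 353 and 303), lymphocyte (1.51, beside 0.942 and 1.33) and papilla (22703, beside 4318 and 17328) sums. Without *Col1a1* and *Col1a2* the papilla sum of this library was 4192 CPM, between 1440 and 4594 in replicates 1 and 3.

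Within the groups the 9 genes varied together. After the group means were removed, Pearson's r of log2 CPM between pairs of genes over the 6 libraries ran from 0.47 (*Cd68* with *Fcgr3*) to 0.97 (*Mrc1* with *Cd163*), with a median of 0.79 over 36 pairs. *Csf1* correlated most with *Tyrobp* (0.97), *Csf1r* (0.93) and *Cd68* (0.92) and least with *Fcgr3* (0.57). The points share library depth and the same dissected tissue, and r is given as a description only.

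The genes most like the markers were sought among 11591 other genes with a mean of at least 5 CPM, by Pearson's r over the 6 libraries with the mean log2 CPM of the markers other than *Csf1*. They were *Jcad*, *B4galt5*, *Antxr2*, *Zcchc24* and *C1qa*, with r between 0.996 and 0.999. *C1qa*, a chain of complement C1q that macrophages make, had 6.404, 12.7 and 6.13 CPM in *Kdf1* fl/fl and 36.9, 18.1 and 12.3 CPM in the cKO libraries. *Jcad*, a protein of endothelial cell junctions, had 22.9, 34.2 and 24.7 CPM against 51.6, 37.9 and 32.4 CPM in the same order. With 6 points such values carry no test.

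Other genes of the lineage were taken from 8 lists of myeloid and leukocyte genes, 96 genes beside the markers, of which 79 were tested. None passed the criterion in edgeR, 31 had an unadjusted p of at most 0.05 as higher and 4 as lower in *K14-Cre;Kdf1* fl/fl. Of all genes tested 13% had such a p as higher and 24.5% in both directions. In DESeq2 18 passed as higher and 2 as lower, *Maf* and *Cbr2*, where 4.96% of all genes passed as higher. The share of all genes in both directions was 6.81%. With the replicate block in edgeR 10 passed as higher and 2 as lower, where 4.16% of all genes passed as higher and 6.09% in both directions. The median log2 fold change was 0.92, and 60 of the 79 had a value above 0. Without replicate 1 of *K14-Cre;Kdf1* fl/fl the median was 0.50.

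The medians of the lists ran from −0.13 to 1.77. The lowest was that of the CSF1 receptor axis without the markers, of which 3 genes were tested. The median was 1.77 for the 8 monocyte genes tested, 1.23 for 11 pan-leukocyte genes, 1.14 for 4 genes of class II antigen presentation, 1.00 for 16 genes of resident macrophages and 0.94 for 12 receptors and adaptors. It was 0.22 for 14 lysosome genes and 0.05 for 12 transcription factors. The log2 fold change of abundant members of these last lists was 0.19 for *Ctsb*, −0.23 for *Lamp1* and −0.13 for *Ctsd* of the lysosome, and −0.26 for *Klf4* and −1.19 for *Maf* of the factors. *Maf* was at 291 ± 73.7 CPM in *Kdf1* fl/fl and 127 ± 63.5 CPM in the cKO libraries (SD, n = 3 per group).

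**Figure D3:**
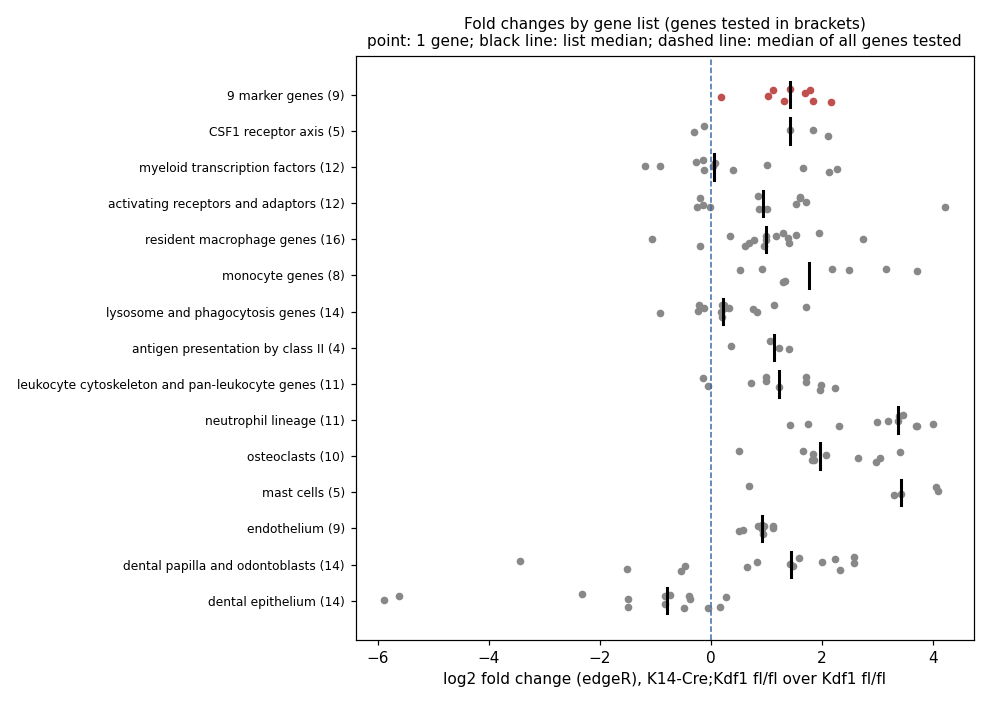
Log2 fold change (edgeR, *K14-Cre;Kdf1* fl/fl over *Kdf1* fl/fl) of each gene tested, by list, with the number tested in brackets. Black lines are list medians and the dashed line is the median of all genes tested. The CSF1 receptor axis list is shown with the markers *Csf1* and *Csf1r*, as 5 genes with a median of 1.43. The markers (red) have a median of 1.43. Lists that lie higher include those of mast cells (3.43), neutrophils (3.37), osteoclasts (1.96) and monocytes (1.77). The dental epithelium list lies lower with −0.78.

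Along the CSF1 receptor axis, *Il34*, the other ligand of CSF1R, was scarce and did not pass the filter, at 0.188, 0.121 and 0.190 CPM in *Kdf1* fl/fl and 1.77, 0.252 and 0.527 CPM in the cKO libraries. *Csf2rb*, the shared chain of the receptors for GM-CSF, IL-3 and IL-5, had 4.83, 6.90 and 3.41 CPM against 46.1, 9.57 and 9.89 CPM. All 3 *K14-Cre;Kdf1* fl/fl libraries were above the controls. The log2 difference was 2.11 (SE 0.67), with an adjusted p of 0.127 in edgeR and 0.00822 in DESeq2 (Benjamini-Hochberg). Without replicate 1 of *K14-Cre;Kdf1* fl/fl it was 0.96, with an adjusted p of 0.203 in edgeR. *Csf2ra*, the chain that binds GM-CSF, was at 27.4 ± 1.35 and 25.0 ± 2.93 CPM (SD, n = 3 per group). *Kitl*, the ligand of KIT, had 14.3, 27.2 and 26.9 CPM against 23.2, 17.6 and 14.8 CPM. Both differed by less than the spread between replicates (edgeR adjusted p of 0.602 and 0.558, Benjamini-Hochberg). *Flt3*, a receptor of early precursors, had at most 3 counts in any library.

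A few partners of the markers were chosen after their values were seen. Of the 12 receptors and adaptors tested, 8 had a log2 fold change above 0 and 4 below it. Those below were *Syk* (−0.14), *Ptpn6* (−0.25), *Sirpa* (−0.19) and *Mertk* (−0.01). Among the 12 transcription factors tested, 7 were above 0 and 5 below. *Spi1*, which encodes PU.1, had 2.07, 4.0 and 1.96 CPM in *Kdf1* fl/fl and 21.8, 7.24 and 6.46 CPM in the cKO libraries, a log2 difference of 2.14 (SE 0.56). The adjusted p of *Spi1* was 0.0896 in edgeR, 0.00251 in DESeq2 and 0.0652 with the block (Benjamini-Hochberg), and the log2 difference was 1.36 without replicate 1 of *K14-Cre;Kdf1* fl/fl. *Fcer1g*, the signalling chain through which FCGR3 acts, had 3.14, 7.39 and 3.85 CPM and 20.3, 13.7 and 10.1 CPM, which is 1.61 (SE 0.40) on the log2 scale. It passed in DESeq2 (adjusted p = 0.003) and in edgeR with the replicate block (0.0442, Benjamini-Hochberg), but not in edgeR without it (0.0842). *Cd14*, the lipopolysaccharide co-receptor of monocytes, had 0.377, 0.727 and 0.379 CPM against 3.73, 2.71 and 2.04 CPM, with adjusted p values of 0.0582 in edgeR and 0.0213 with the block (Benjamini-Hochberg).

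Markers of other cell types also differed between the groups. For comparison with the counts below, 0.142% of all genes passed as higher in edgeR, 4.96% in DESeq2 and 4.16% with the block. An unadjusted p of at most 0.05 as higher in edgeR was reached by 13%. The summed CPM of 8 markers, *Csf1* left out, was 30.5 to 71.3 in *Kdf1* fl/fl and 60.4 to 206 in *K14-Cre;Kdf1* fl/fl. The neutrophil list ran from 6.19 to 8.73 and from 38.4 to 116 CPM, and 5 of its 11 genes tested passed the criterion in edgeR, all higher, *Ngp*, *Ltf*, *S100a8*, *S100a9* and *Lcn2*. The counts were 7 in DESeq2 and 8 with the block, but 0 with DESeq2 size factors in edgeR and 0 in limma-voom. In edgeR the count was 0 without any 1 library other than replicate 3 of *K14-Cre;Kdf1* fl/fl. Among all 16 genes listed, tested in edgeR or not, DESeq2 called 7 to 9 without each library in turn. The adjusted p of *S100a9* and *Ngp* was 0.0498 in edgeR (Benjamini-Hochberg), next to the threshold. *Ly6g* and *Cebpe*, which also define neutrophils, had no count in any *Kdf1* fl/fl library and at most 3 in a *K14-Cre;Kdf1* fl/fl library. The osteoclast list ran from 76.8 to 127 and from 243 to 1382 CPM, and 0 of its 10 genes tested passed in edgeR (8 with p at or under 0.05 before adjustment), 8 in DESeq2 and 4 with the block. *Mmp9* of this list had 46.1, 33.6 and 15.6 CPM against 761, 148 and 104 CPM.

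The endothelium list summed to 303 to 383 CPM in *Kdf1* fl/fl and 352 to 1025 CPM in the cKO libraries, where 2 of 9 genes passed in DESeq2 and 0 in edgeR (5 with p at or under 0.05 before adjustment). The mast cell genes other than *Kit* summed to 2.76, 1.45 and 0.884 CPM in *Kdf1* fl/fl. They summed to 57.5, 8.75 and 5.08 CPM in the cKO libraries, highest in replicate 1. Of the 4 tested, 0 passed in edgeR (4 with p at or under 0.05 before adjustment), 4 in DESeq2 and 4 with the block. *Cpa3* had 0.691, 0.303 and 0.253 CPM against 16.6, 2.45 and 2.11 CPM. Of 10 lymphocyte genes only 2 passed the filter, and the list summed to 0.942 to 1.51 and 2.64 to 8.23 CPM. The erythroid list overlapped between the groups, at 831 to 1302 and 799 to 1281 CPM, and so did the papilla and odontoblast list, at 4318 to 22703 and 11189 to 12977 CPM, a sum made up largely of *Col1a1* and *Col1a2*. Gene by gene the papilla list lay near the markers, with a median log2 fold change of 1.45 and 10 of 14 genes above 0. As higher, 1 of them passed in edgeR (*Twist1*), 6 in DESeq2 and 7 with the block, and 9 had p at or under 0.05 before adjustment. The largest values were those of the mesenchymal genes *Prrx1* (2.59), *Lhx8* (2.57) and *Col3a1* (2.32), and the lowest was that of *Dspp* (−3.45), the dentin sialophosphoprotein of odontoblasts. The dental epithelium list was higher in every control, 15715 to 31309 CPM against 7171 to 11739 CPM. *Cdh1* of this list passed the criterion as lower (edgeR adjusted p = 0.0498, Benjamini-Hochberg), as did 41 of all 14131 genes tested. The calls of *Cdh1* and *Twist1* were also lost with DESeq2 size factors in edgeR, in limma-voom and in the same edgeR fits without 1 library. With library size alone both were lost, where the neutrophil list kept 1 call. *Twist1* was also lost in limma on log2(TPM + 1) and log2(TPM + 0.1), where the neutrophil list kept 3 and 5 calls. Replicate 1 of *K14-Cre;Kdf1* fl/fl had the highest sum in the marker, pan-leukocyte, neutrophil, osteoclast, lymphocyte and endothelium lists. It did not in those of erythroid cells, dental epithelium or, with all its genes, papilla. Without *Col1a1* and *Col1a2* the papilla sum was highest in this library too, at 5353 CPM. It was then 3978 and 2556 CPM in replicates 2 and 3 of *K14-Cre;Kdf1* fl/fl and 1440 to 4594 CPM in *Kdf1* fl/fl. The part of these other cells and of the area dissected in the values of the markers was not tested.

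**Figure D4:**
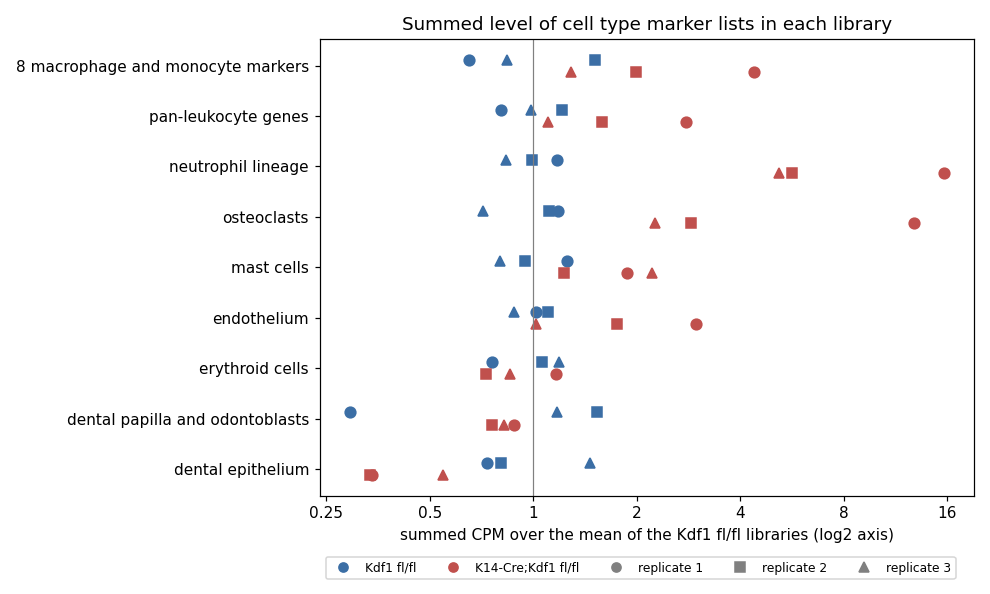
Summed CPM of each marker list in each library over the mean of the *Kdf1* fl/fl libraries (log2 axis), *Kdf1* fl/fl in blue and *K14-Cre;Kdf1* fl/fl in red. The mast cell list is shown with *Kit*, and its sums overlap, at 103 to 161 CPM in blue and 158 to 284 CPM in red. The 8 macrophage and monocyte markers sum to 30.5 to 71.3 CPM in the blue libraries and 60.4 to 206 CPM in the red ones. The neutrophil and osteoclast sums of the red libraries lie above all blue ones, and their dental epithelium sums lie below all blue ones.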

How the data were processed

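RNA was extracted with TRIzol and libraries were made with an Illumina TruSeq RNA kit, per the labels. The submitters' processing notes name BWA 0.7.12, Picard 2.6.0 and StringTie without their roles, and the genome build is not given in the sources used here. The authors deposited estimated counts per gene, not normalised, of which 10.9% to 11.5% per library were not whole numbers. They also deposited TPM and FPKM values and group means of all 3, of which only the TPM per library were used. Estimated counts were rounded. In R 4.3.3 with edgeR 4.0.16, filterByExpr kept 14131 genes, libraries were scaled by TMM, and genotypes were tested by quasi-likelihood F-tests with robust dispersion (two-sided, Benjamini-Hochberg over all genes tested), a fit tested on simulated data. SE values are the log2 fold change over the square root of F. DESeq2 1.42.0, limma 3.58.1 (voom, and trend on log2(TPM + 1) and log2(TPM + 0.1)), other scalings and filters, and fits without each library were alternatives. Between replicates the variance of counts was 36.2 to 78.0 times that of sampling, and none was a copy of another. Replicate numbers were used as a block in an alternative fit only, and the main fit had no block. Deviations of libraries with the same number from their group means correlated at 0.135, 0.324 and 0.499 across genes. Libraries with different numbers were not compared and the labels state no pairing, so these values cannot show whether the libraries were paired. The members and gene lists were chosen with earlier results of these data known, so no list was tested as a set. Genes named are the markers, *Kdf1*, the CSF1 receptor axis, the 3 most abundant genes of the other lists (values given for some), *Krt14*, *Cdh1* and *Epcam*, and the 5 genes most like the markers. Others were chosen after their values were seen.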

Additional observations from a re-analysis of the deposited data

How the results depend on the processing

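The count of marker genes past the criterion was 0 in edgeR under each scaling and filter, with the replicate block, without the robust option, in limma and in each of the 6 edgeR fits that left out 1 library, and 4 in DESeq2. DESeq2 without each library in turn, an alternative chosen after seeing the data, gave 0 to 6. The replicate block thus changed no call of a marker (0 past the criterion). The median log2 fold change of the markers lay between 1.14 and 1.61 in the fits of all 6 libraries and between 0.92 and 1.96 in those that left out 1. Of the 9 genes, only *Lyz2* changed sign. Without 1 library its log2 fold change ran from −0.45 to 0.51, with −0.44 (edgeR) and −0.45 (DESeq2) without replicate 1 of *K14-Cre;Kdf1* fl/fl and −0.15 and −0.16 without replicate 1 of *Kdf1* fl/fl. The number of all genes past the criterion, 61 (20 higher, 41 lower), was less stable. It was 7 with DESeq2's size factors (1 higher), 9 with library size alone (2 higher), 6 in limma-voom, 103 without the filter, 6 with at least 10 counts in every library (which removed *Aif1* and *Cd163*), 16 on log2(TPM + 1), 1038 in DESeq2 (757 higher) and 860 with the replicate block (588 higher). Leaving out 1 library gave 1 to 465 in edgeR and 455 to 1483 in DESeq2. The cause of these differences was not tested. *Cd163* and *Aif1* had 2 to 14 counts in the controls, the thinnest of the 9 genes.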
